A study of Arabidopsis thaliana with 6 samples.

Results

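Seedlings of Arabidopsis thaliana that overexpress OsTOP6A3, a rice A subunit of DNA topoisomerase VI, were compared with wild-type seedlings on 4 of the 6 arrays of the series. Both groups held 2 arrays, described as biological replicates, and the arrays of each group were identified by their titles. The overexpressors carried the rice cDNA, and their title names 1 line. The sources used here name neither the promoter that drives the cDNA nor an empty-vector line, so the action of the subunit and features of that line cannot be told apart. All seedlings were 10 days old and were grown under continuous illumination on agar-gelled MS medium with sucrose, and total RNA of whole seedlings was labelled with biotin. The ecotype is given as Columbia for both overexpressor arrays and for wild-type replicate 2, and is not stated for wild-type replicate 1. Another 2 arrays of seedlings that overexpress OsTOP6B, a rice B subunit, were used to estimate the spread between replicates and are set beside the OsTOP6A3 arrays where a difference rests on them.

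Topoisomerase VI is a type II enzyme that cuts both strands of a DNA duplex, passes another duplex through the gap and reseals it. It is made of A subunits, which hold the tyrosine that attacks the DNA, and B subunits, which bind ATP. In Arabidopsis the plant complex is known for its part in endoreduplication, the rounds of genome copying without division by which hypocotyl, leaf and root hair cells grow large. The A subunit belongs to the family of SPO11, which makes the DNA breaks that start meiotic recombination.

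Levels are given as the log2 of the normalized intensity plus 16, on which the lowest possible value is 4. A difference is the mean of the OsTOP6A3 arrays minus that of the wild-type arrays on this scale, with a standard error from limma and n = 2 arrays per group. A probe set or gene was called when its adjusted p from limma, by the Benjamini-Hochberg method over 17059 tested probe sets, was under 0.05. The p-values measure the spread between these seedling samples. Where a gene was called, groups that do not overlap follow largely from the call and add no evidence to it. Of 22746 probe sets that are no controls, 13513 are annotated with 1 gene, 503 with several and 8730 with none, and the account of pathways below rests on the 9322 tested genes that 1 of the former represents.

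Quality values that moved with the groups were taken from the control probe sets. The ratio of the 5′ to the 3′ probe set of ubiquitin was 0.309 and 0.335 in wild type and 0.426 and 0.443 in the OsTOP6A3 seedlings. That of GAPDH was 0.622 and 0.672 against 0.841 and 0.698, while that of actin overlapped between the groups, from 0.0778 to 0.0985 against 0.0791 and 0.0805. The part of RNA integrity or labelling in the differences below was not tested. Of 40 markers of shoot, root, seed and flower tissue, 3 were named on the array and tested, and these were the root genes EXPA7, EXPA18 and PYK10. Their summed intensity was 6307 and 6747 in wild type and 7150 and 7611 in the OsTOP6A3 seedlings, so the groups did not overlap. The part of tissue proportions was not tested. In whole seedlings, fewer cells of a type and less RNA per cell cannot be told apart.

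The change was spread over many small differences rather than a few large ones. Of the tested probe sets 9.68% were called, 5.52% higher and 4.17% lower in the OsTOP6A3 seedlings. Among 941 rises, 94 were under 1.5-fold, 462 lay between 1.5-fold and 2-fold, 315 between 2-fold and 4-fold, and 70 reached 4-fold. Among 711 falls these numbers were 121, 405, 152 and 33. On the deposited scale, without scaling between arrays, the median of all tested probe sets lay at 0.34 and 92.1% of the calls were rises, against 57.0% after quantile normalization.

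The larger changes held up best when arrays were left out. The number of calls dropped to 708 on dropping wild-type replicate 1, 870 on dropping wild-type replicate 2, 560 on dropping OsTOP6A3 replicate 1 and 689 on dropping OsTOP6A3 replicate 2. In each of these 4 fits 442 of the 1652 probe sets were called again in the same direction, 314 higher and 128 lower. These included 69 of the 70 rises and 27 of the 33 falls of at least 4-fold, and 290 of 385 rises and 121 of 185 falls of at least 2-fold. Of the genes, 9.89% were called (548 or 5.88% higher and 374 or 4.01% lower), and 2.66% were called in each fit that left out 1 array.

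**Figure D1:**
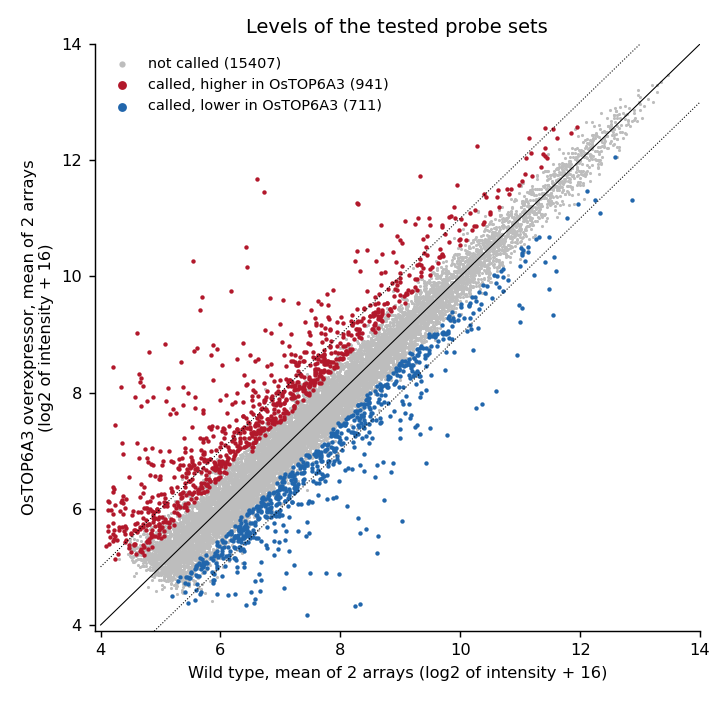
Mean level in wild type (x axis) against mean level in OsTOP6A3 overexpressors (y axis) for 17059 tested probe sets, both as log2 of intensity plus 16 over 2 arrays. The solid line marks equal levels and the dotted lines a 2-fold difference. The 941 rises (red) and 711 falls (blue) lie along the whole range of levels, and several rises start near the floor of 4 in wild type.

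Rises and falls of at least 2-fold started from different signal levels. The 385 rises had a median level of 5.93 in wild type and 7.74 in the OsTOP6A3 seedlings, whereas the median over all tested probe sets was 7.37 in both groups. The 185 falls had a median of 7.88 in wild type and 6.44 in the OsTOP6A3 seedlings. This description follows in part from the choice of probe sets by their difference. It may also follow in part from the filter on the mean of all 6 arrays, of which 4 are overexpressors, since a probe set low in wild type alone passes it more easily than one low in both overexpressors. The fold of a gene near the floor depends on the pseudocount.

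Split into 4 classes of equal size by mean level over the 4 arrays, probe sets were called at 10.2%, 10.8%, 9.33% and 8.39% from the lowest class to the highest. The 2-fold changes were more frequent at the bottom. The lowest class held 132 rises and 52 falls of at least 2-fold, and the highest held 61 and 30. The median size of a called difference was 0.91 in the lowest class and 0.77 in the highest, with median standard errors over all probe sets of 0.17 and 0.14. This order of the classes rests on the pseudocount and the variance model. With a pseudocount of 64 the calls numbered 356 in the lowest class and 730 in the highest, and with an intensity trend in the variance 351 and 735, against 435 and 358 in the reported fit. Signal also depends on how well each probe binds, so these classes do not rank transcript abundance.

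**Figure D2:**
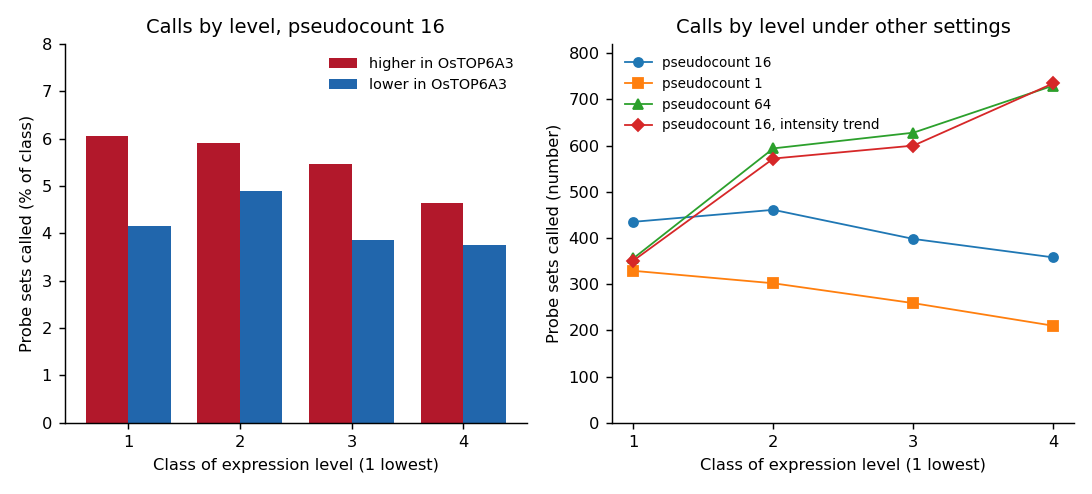
Left, percent of the tested probe sets in each class of expression level called higher (red) or lower (blue) in OsTOP6A3 overexpressors. Right, number of probe sets called in each class with pseudocounts of 16, 1 and 64 and with an intensity trend. Calls fell from 435 to 358 between the lowest and highest class with the pseudocount of 16 and rose from 356 to 730 with 64.

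Genes of known pathways were counted through 66 lists, of which 40 had at least 3 tested members, 16 had 1 or 2, and 10 had none. Over the 40 lists, 30 of 416 genes rose and 28 fell, a share of 13.9% beside 9.89% of all genes. Without 1 array at a time, 24 to 36 members were called, with 24 both on dropping wild-type replicate 1 and on dropping OsTOP6A3 replicate 1, 36 on dropping wild-type replicate 2 and 29 on dropping OsTOP6A3 replicate 2. No member was called in 14 of the 40 lists. The medians of the lists ran from -0.34 to 0.19, beside -0.01 over all genes. In the plot of list members, called genes are mostly single points away from a list median near 0.

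**Figure D3:**
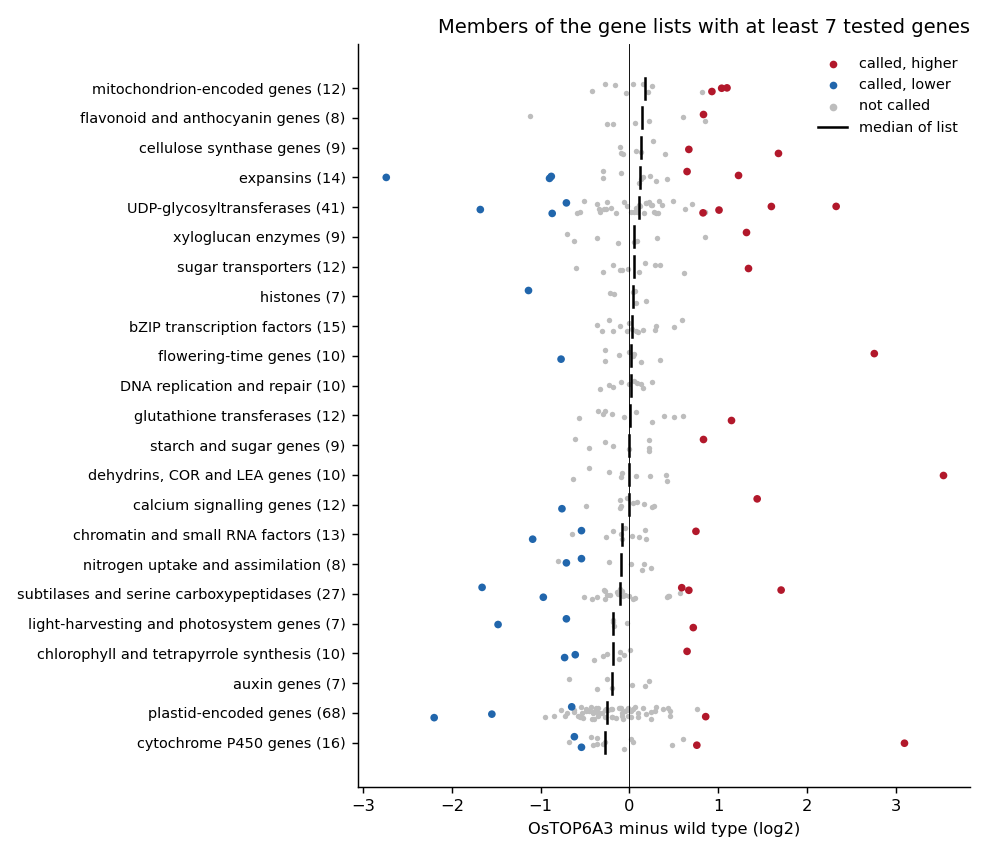
Difference between OsTOP6A3 overexpressors and wild type on the log2 scale (x axis) for each tested member of the 23 gene lists with at least 7 tested genes, with the number of genes in brackets. Red points were called higher, blue points lower and grey points not called, and black bars mark list medians, which lie within 0.3 of 0. Members far from the bar are single genes such as EXPA8 at -2.74, psbA at -2.20 and M17 at 3.53. M17 lay near the floor in wild type, so its size depends on the pseudocount.

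Of 24 topoisomerase genes listed in the reference, 5 were named on the array and 4 were tested. None of these 4 was called, and 0 had an unadjusted limma p under 0.05. They were BIN4, SPO11-2, TOPII and TOP3A, so the plant's own A and B subunits of topoisomerase VI were not tested by name. BIN4, a component of the plant topoisomerase VI complex, read 6.16 and 5.29 in wild type and 5.36 and 5.36 in the OsTOP6A3 seedlings, a difference of -0.37 ± 0.27 (limma adjusted p = 0.444). SPO11-2, a meiotic relative of the A subunit, read 5.01 and 5.25 against 5.58 and 4.80. The groups overlapped for both genes. TOPII, which encodes topoisomerase II, differed by -0.17 ± 0.13, and TOP3A, which encodes a type I enzyme that acts in recombination, by 0.28 ± 0.14 (limma adjusted p = 0.458 and 0.246). The array was made for Arabidopsis, and no probe set used here is annotated to the rice cDNA, so the overexpression itself could not be checked.

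Genes of DNA copying and repair likewise gave no call among 10 tested members, whose differences ran from -0.33 for POLH, a translesion polymerase, to 0.26 for RAD9, a checkpoint clamp subunit. Of these 10, 0 had an unadjusted limma p under 0.05. None of 6 cyclin and cell cycle kinase genes was called, while 3 of them had an unadjusted limma p under 0.05. Their median was -0.30 in the reported fit, beside -0.01 over all genes, and 0.04 on the deposited scale, beside 0.34. Nearest to a call was AUR2, an Aurora kinase, at -0.43 ± 0.13 (limma adjusted p = 0.0862). Next was SIM, an inhibitor of cyclin-dependent kinases that promotes endoreduplication in trichomes, at -0.34 ± 0.13 (limma adjusted p = 0.159). SIM read 8.03 and 7.93 in wild type and 7.71 and 7.57 in the OsTOP6A3 seedlings. REV7, a subunit of a translesion polymerase outside that list, fell by 0.91 on the log2 scale (SE 0.16, limma adjusted p = 0.0144), from 6.04 and 6.45 to 5.29 and 5.38. This call was lost on dropping wild-type replicate 2 (0.0668), on dropping OsTOP6A3 replicate 1 (0.0968), on dropping OsTOP6A3 replicate 2 (0.0648) and on the deposited scale (0.118). A missed threshold does not show that the uncalled genes were unaltered.

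Chromatin genes moved in both directions. Of 13 chromatin and small RNA factors 23.1% were called, beside 9.89% of all genes. HDA15, a histone deacetylase, rose by 0.75 ± 0.16, while CHR18 and CHR24, remodelling ATPases of the SNF2 family, fell by 1.09 and 0.54 on the log2 scale. CHR18 read 6.75 and 6.79 in wild type and 5.69 and 5.67 in the OsTOP6A3 seedlings, with no overlap. HIS1-3, a linker histone induced by drought, fell from 7.75 and 7.57 to 6.25 and 6.80, by 1.14 on the log2 scale (SE 0.22, limma adjusted p = 0.0207), as the one call among 7 histone genes. These calls were sensitive to single arrays. Limma's adjusted p without 1 array was 0.0516 to 0.0574 for CHR18, 0.105 to 0.279 for CHR24 and 0.0526 to 0.176 for HDA15. That of HIS1-3 was 0.11 on dropping wild-type replicate 1, 0.0618 on dropping wild-type replicate 2 and 0.118 on dropping OsTOP6A3 replicate 1. On the deposited scale CHR24 (0.595) and HIS1-3 (0.0563) were not called either.

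Expansins, which loosen the cell wall, split into rises and falls. Of 14 tested members 2 rose and 3 fell, a share of 35.7% beside 9.89% of all genes, with a median of 0.12. EXPA8 read 8.23 and 8.41 in wild type and 5.45 and 5.71 in the OsTOP6A3 seedlings, a fall of 6.66-fold (limma adjusted p = 0.000467). EXPA7, which is expressed in root hair cells, read 6.22 and 5.92 against 7.45 and 7.16, a rise by 1.23 ± 0.16 on the log2 scale (limma adjusted p = 0.00357). The groups were far apart for both genes, and both calls held without any 1 of the 4 arrays. Another root hair expansin, EXPA18, differed by 0.15 ± 0.15, and PYK10, a root glucosidase, by 0.16 ± 0.14 (limma adjusted p = 0.601 and 0.524). EXPA15 and EXPB3 fell by 0.88 and 0.90 on the log2 scale and EXPA9 rose by 0.65. The call of EXPB3 was lost on dropping wild-type replicate 1 (adjusted p = 0.0505) and on dropping OsTOP6A3 replicate 2 (0.0606), that of EXPA15 without the same arrays (0.0546 and 0.0675), and that of EXPA9 without each array (0.0902 to 0.24). On the deposited scale EXPB3 and EXPA15 were not called (0.203 and 0.226).

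Of 9 tested xyloglucan enzymes 1 was called, a share of 11.1% beside 9.89% of all genes, and of 5 CSLC genes 1 was called. CSLC04 encodes a synthase of the glucan backbone of xyloglucan, the main hemicellulose of the seedling wall. It read 6.88 and 6.68 in wild type and 8.39 and 8.52 in the OsTOP6A3 seedlings and rose 3.20-fold (limma adjusted p = 0.000558). EXGT-A3, an enzyme that cuts and rejoins xyloglucan chains, rose 2.47-fold from 9.86 and 9.91 to 11.21 and 11.18 (limma adjusted p = 0.00136). The other 4 members of the CSLC family lay between -0.10 and 0.40, and among the xyloglucan enzymes XTH26 at -0.70 and XTH20 at 0.85 were not called.

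TBL37 belongs to a family of wall polysaccharide acetyltransferases and their relatives. It rose 2.76-fold, from 7.76 and 7.86 to 9.21 and 9.33 (limma adjusted p = 0.000628), as the one call among 17 TBL genes. SKU5, a membrane-anchored protein of the multicopper oxidase type that controls the direction of root growth, rose from 9.02 and 8.95 to 10.66 and 10.57, or 3.09-fold (limma adjusted p = 0.000334). The groups did not overlap for either gene, and the calls of CSLC04, EXGT-A3, TBL37 and SKU5 held without each array. GH9A3, an endoglucanase of the cellulose list, was called at 0.67 ± 0.17, and its call was lost without each array (adjusted p = 0.0989 to 0.281). None of 4 pectin enzymes was called, and 0 had an unadjusted limma p under 0.05.

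Glycosyltransferases of small molecules were the largest list of nuclear genes. Of 41 tested UDP-glycosyltransferases 4 rose and 3 fell, a share of 17.1% beside 9.89% of all genes, with a median of 0.11. UGT74B1, which attaches glucose in the synthesis of glucosinolates, read 6.54 and 6.95 in wild type and 9.07 and 9.08 in the OsTOP6A3 seedlings. The rise was 5.03-fold, or 2.33 ± 0.21 on the log2 scale (limma adjusted p = 0.000808). The other 2 tested glucosinolate genes, AOP1 and BCAT4, stood at -0.35 and -0.29 and were not called. UGT85A2 rose 3.04-fold, from 7.56 and 7.61 to 9.35 and 9.03 (limma adjusted p = 0.00112).

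UGT84A1, which makes glucose esters of hydroxycinnamic acids, fell 3.21-fold, from 6.97 and 6.82 to 5.63 and 4.80 (limma adjusted p = 0.00612). Its relatives UGT84A3 and UGT84A4 lay at -0.51 and 0.12, uncalled. The calls of UGT74B1, UGT85A2 and UGT84A1 held without each array. Smaller calls were UGT78D1, a flavonol rhamnosyltransferase, at 0.83, UGT71C2 at 1.01, UGT76B1, which acts on isoleucic acid and salicylic acid, at -0.87, and UGT87A2 at -0.71. Without single arrays limma's adjusted p reached 0.0615 for UGT78D1, 0.148 for UGT71C2, 0.138 for UGT76B1 and 0.147 for UGT87A2, and each call was lost without at least 3 of the 4 arrays. UGT78D1 kept its call on dropping wild-type replicate 2 and UGT87A2 on dropping OsTOP6A3 replicate 1. UGT76B1 and UGT87A2 were not called on the deposited scale (0.226 and 0.431).

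Cytochrome P450 genes followed the same picture, with 2 rises and 2 falls among 16 tested, a share of 25% beside 9.89% of all genes. CYP71B34 read 4.85 and 4.48 in wild type, near the floor, and 7.61 and 7.92 in the OsTOP6A3 seedlings. Its difference of 3.10 ± 0.17 became 4.33 with a pseudocount of 1 and 1.86 with 64, and its call held without each array. CYP71B26 rose by 0.76, and CYP71B28 and CYP71B6 fell by 0.62 and 0.54 on the log2 scale. These were lost on dropping wild-type replicate 1 (adjusted p = 0.0748, 0.182 and 0.166) and on dropping OsTOP6A3 replicate 1 (0.1, 0.235 and 0.179), and the falls also without the other arrays and on the deposited scale (0.56 and 0.734).

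Secreted proteases showed the same split. Of 27 subtilases and serine carboxypeptidases 3 rose and 2 fell, a share of 18.5% beside 9.89% of all genes, with a median of -0.11. SBT4.12, a subtilase, read 7.55 and 7.62 in wild type and 9.33 and 9.25 in the OsTOP6A3 seedlings, a rise of 3.27-fold (limma adjusted p = 0.00202). The carboxypeptidase gene scpl31 fell 3.17-fold, from 7.73 and 7.16 to 5.61 and 5.94 (limma adjusted p = 0.00463). Neither pair of groups overlapped, and both calls held without each array. SBT3.12 was called at -0.97, scpl47 at 0.67 and scpl48 at 0.59. Their calls were lost in each fit without 1 array in which they were tested, with limma's adjusted p from 0.0638 to 0.178, and SBT3.12 was not called on the deposited scale (0.0973).

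Among genes of photosynthesis, single antenna and biogenesis genes moved, in both directions. Of 7 tested light-harvesting and photosystem genes 1 rose and 2 fell, a share of 42.9% beside 9.89% of all genes. LHCB4.3, a form of the CP29 antenna protein of photosystem II, read 10.26 and 10.19 in wild type and 8.67 and 8.82 in the OsTOP6A3 seedlings. It fell 2.79-fold (limma adjusted p = 0.00208), and the call held without each array. The other genes of this antenna protein did not follow it. LHCB4.2 was called higher, by 0.72 ± 0.16, and LHCB4.1 differed by -0.18 ± 0.14 (adjusted p = 0.465). PSAN, a photosystem I subunit, was called at -0.71. The calls of LHCB4.2 and PSAN were lost without each array (adjusted p = 0.104 to 0.183 and 0.117 to 0.179).

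Chlorophyll synthesis gave 1 rise and 2 falls among 10 genes, a share of 30% beside 9.89% of all genes. CHLI2, a subunit of magnesium chelatase, was called at -0.73, PORB, a light-dependent reductase of protochlorophyllide, at -0.61, and HEMA2, which starts the pathway from glutamyl-tRNA, at 0.65. The call of CHLI2 was lost on dropping wild-type replicate 1 (adjusted p = 0.105) and on dropping either OsTOP6A3 array (0.106 and 0.0916). Those of PORB (0.0632 to 0.302) and HEMA2 (0.105 to 0.187) were lost without each array. CHLI2, PORB and PSAN were also not called on the deposited scale (0.395, 0.654 and 0.394). None of 3 Calvin cycle genes was called, and for 0 of them was the unadjusted limma p under 0.05.

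Other chloroplast genes were named because they have a symbol and were called, a choice made after their values were seen. CcdA, a thylakoid protein needed to assemble the cytochrome b6f complex, rose 3.57-fold, from 7.85 and 7.51 to 9.45 and 9.58 (limma adjusted p = 0.00112). SAPX, a stromal ascorbate peroxidase, fell 3.44-fold, from 9.05 and 8.96 to 7.18 and 7.26 (limma adjusted p = 0.000267). In neither case did the groups overlap, and both calls held without each array. The thylakoid peroxidase gene TAPX read 9.22 and 8.99 against 8.47 and 8.72, a difference of -0.51 ± 0.14 that was not called (limma adjusted p = 0.0704). PGRL1B, PAM68 and CYTC6A were called at -0.93, -0.79 and -0.74, and CCB3, CLPP4 and Cpn60beta3 at 0.85, 0.55 and 0.67. On the deposited scale the falls of PGRL1B, PAM68 and CYTC6A were not called (limma adjusted p = 0.188, 0.328 and 0.387).

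Of 68 tested plastid-encoded genes 64 were not called, 1 was called higher and 3 lower. The share called lower was 4.41%, beside 4.01% of all genes, and the share called in either direction 5.88%, beside 9.89%. A difference below 0, called or not, was measured for 50 of the 68. Their median was -0.25, beside -0.01 over all genes, and on the deposited scale 0.13 beside 0.34. By product, the medians were -0.47 for 6 ATP synthase subunits, -0.27 for 20 photosystem subunits, -0.24 for 15 ribosomal proteins, -0.10 for 6 cytochrome b6f subunits and -0.08 for 9 subunits of the NADH dehydrogenase-like complex.

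Among plastid genes, psbA and rps4 had the falls that held. The gene psbA encodes the D1 protein of the photosystem II reaction centre, which is replaced often in the light. It read 11.66 and 11.41 in wild type and 9.40 and 9.27 in the OsTOP6A3 seedlings, 4.60-fold lower (limma adjusted p = 0.000971). The ribosomal protein gene rps4 read 12.89 and 12.85 against 11.56 and 11.07, 2.93-fold lower (limma adjusted p = 0.00212). The groups were apart by more than 1 on the log2 scale for both, and the calls held without each array. Weaker calls were ccsA, which acts in attaching haem to cytochromes, at -0.65, and ndhA, of the NADH dehydrogenase-like complex, at 0.86. Both were lost without each array (limma adjusted p = 0.0528 to 0.229 and 0.0654 to 0.202), and ccsA was not called on the deposited scale (0.489).

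The OsTOP6B arrays, compared with the same wild-type arrays, gave different values for these plastid genes. There psbA read 10.69 and 10.09 and lay at -1.15 ± 0.21 from wild type (limma adjusted p = 0.011), and rps4 read 12.36 and 12.18 and lay at -0.60 ± 0.18 (0.0619). The difference between the overexpressors was -1.06 ± 0.21 for psbA and -0.95 ± 0.18 for rps4, with limma's adjusted p of 0.657 and 0.642, so neither passed. The median of the 68 genes was 0.12 in the OsTOP6B comparison.

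Of 12 genes annotated to the mitochondrial genome 3 rose and none fell, a share of 25% beside 9.89% of all genes. The rises were nad1, a subunit of complex I, 2.14-fold higher, and ccb206 and ccb452, which act in cytochrome c maturation, 2.05-fold and 1.90-fold higher. Levels of nad1 were 5.33 and 5.20 in wild type and 6.43 and 6.31 in the OsTOP6A3 seedlings, without overlap. The call of nad1 was lost on dropping wild-type replicate 2 (limma adjusted p = 0.0514) and on dropping OsTOP6A3 replicate 1 (0.0647), that of ccb206 without the same arrays (0.0854 and 0.0998), and that of ccb452 on dropping wild-type replicate 1 (0.0571) and OsTOP6A3 replicate 1 (0.0743). The uncalled members ran from -0.42 for nad4 to 0.82 for cox2, both of the respiratory chain. The Arabidopsis nuclear genome holds copies of mitochondrial genes, and signal from either cannot be told apart by these probe sets.

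Transcription factor lists were tested only in part. Tested were 15 of 61 bZIP, 6 of 22 bHLH, 6 of 72 WRKY, 1 of 138 MYB and 1 of 106 NAC genes. bHLH104, which regulates the response to iron shortage, read 7.76 and 7.44 in wild type and 9.16 and 9.19 in the OsTOP6A3 seedlings, a rise of 2.98-fold (limma adjusted p = 0.00081). The other 5 tested bHLH genes were not called. AGL87, a MADS-box gene, rose from 5.05 and 5.13 to 7.68 and 8.02, by 2.76 ± 0.18 on the log2 scale (limma adjusted p = 0.000214). This difference became 3.50 with a pseudocount of 1 and 1.77 with 64. SMZ, an AP2-type repressor of flowering, rose 2.03-fold, from 6.31 and 6.46 to 7.41 and 7.41 (limma adjusted p = 0.00494). Each of these 3 calls held without each array. SNZ, a relative of SMZ, went the other way and was called at -0.84. On the deposited scale SNZ was not called (limma adjusted p = 0.101). SMZ and SNZ were named outside the lists counted here. None of 15 bZIP and 6 WRKY genes was called. Neither was any of 7 auxin genes, 4 gibberellin and brassinosteroid genes or 5 iron and metal genes. In the reference the auxin list holds 175 genes, the gibberellin and brassinosteroid list 63 and the iron and metal list 95. Over all genes 9.89% were called, so lists with so few tested members can lack a call without differing from other genes. Before adjustment the limma p was under 0.05 for 4 bZIP genes, 2 WRKY genes, 1 auxin gene, 1 gibberellin or brassinosteroid gene and 1 iron or metal gene.

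Some other families, picked after the values were seen, also had 1 strongly changed member each. Of 361 tested genes in 39 families by symbol stem, 12.7% were called, beside 9.89% of all genes. No member was called in 16 of these families. RALFL32, a gene for a secreted peptide of the RALF type, which alkalinize the wall and act through receptor kinases, read 7.43 and 6.57 in wild type and 9.27 and 9.09 in the OsTOP6A3 seedlings. It rose 4.54-fold (limma adjusted p = 0.00223), and the other 4 RALFL genes lay between -0.30 and 0.47. GLR2.7, a glutamate receptor-like channel, rose 2.71-fold, from 5.75 and 5.67 to 7.25 and 7.05 (limma adjusted p = 0.0014). GLR3.6, a channel of the wound signal, was called at -0.76, and this call was lost on dropping wild-type replicate 2 (0.08), on dropping OsTOP6A3 replicate 1 (0.0633), on dropping OsTOP6A3 replicate 2 (0.104) and on the deposited scale (0.256).

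VPS2.2, a component of the ESCRT machinery that sorts membrane proteins for degradation, rose 2.50-fold, from 6.25 and 5.86 to 7.30 and 7.46 (limma adjusted p = 0.00327). Among 9 VPS genes it was the one call. CEF, a protein of the Sec24 type that loads cargo into vesicles leaving the endoplasmic reticulum, rose 2.58-fold, from 7.88 and 7.59 to 9.18 and 9.03 (limma adjusted p = 0.00254). Both calls, and those of RALFL32 and GLR2.7, held without each array. No member was called among 10 SEC, 8 ATG and 12 UBP genes, which act in secretion, autophagy and the removal of ubiquitin. Before adjustment 1 SEC, 2 ATG and 0 UBP genes had a limma p under 0.05.

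**Figure D4:**
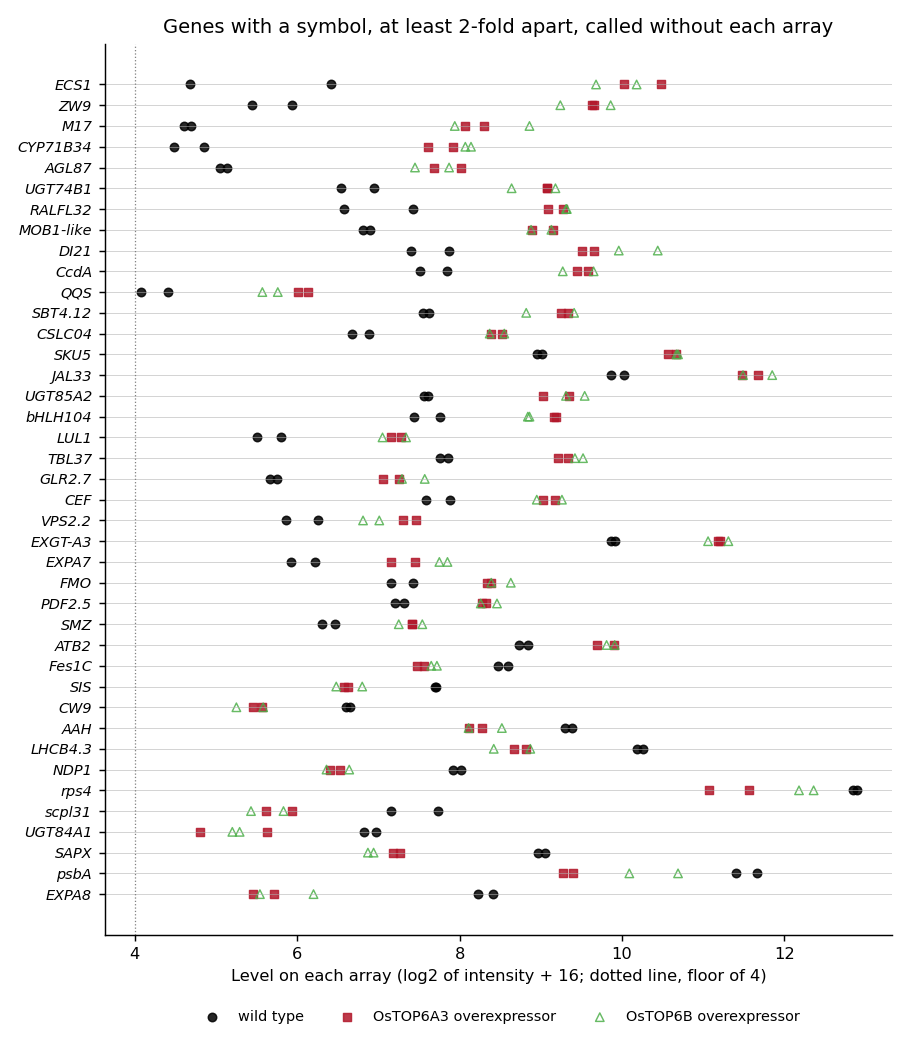
Level on each array (log2 of intensity plus 16, x axis) of the 40 genes with a symbol that differed at least 2-fold between OsTOP6A3 overexpressors and wild type and were called without each array in turn. Black circles are wild type, red squares OsTOP6A3 and green triangles OsTOP6B overexpressors, with 2 arrays each, and the dotted line is the floor of 4. For each gene the wild-type and OsTOP6A3 arrays lie apart, as for psbA at 11.66 and 11.41 against 9.40 and 9.27. This follows largely from the choice of genes by fold and call.

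Few stress and defence genes were tested by name. They were 10 of 73 dehydrin, COR and LEA genes, 6 of 43 jasmonate genes and 2 of 41 salicylate and defence genes. Of these lists 10%, 16.7% and 50% were called, each share resting on 1 call, beside 9.89% of all genes. Among 10 dehydrin, COR and LEA genes M17, a late embryogenesis abundant protein, was the one call. It read 4.69 and 4.61 in wild type, near the floor, and 8.06 and 8.30 in the OsTOP6A3 seedlings. Its difference of 3.53 became 4.78 with a pseudocount of 1 and 2.21 with 64. The cold-regulated genes COR47, COR15A and COR15B lay at -0.45, -0.08 and 0.41. DI21, a drought-induced gene outside that list, rose 3.86-fold, from 7.87 and 7.40 to 9.65 and 9.51 (limma adjusted p = 0.00167). PDF2.5, a plant defensin, rose 2.05-fold from 7.32 and 7.20 to 8.32 and 8.28 (limma adjusted p = 0.00326). The calls of M17, DI21 and PDF2.5 held without each array.

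Other defence genes were called lower. PDF1.4, a second defensin and the one call among 6 jasmonate genes, had a mean of 8.23 in wild type and 7.31 in the OsTOP6A3 seedlings, a difference of -0.92 ± 0.21 (limma adjusted p = 0.0368). Among 7 tested PDF genes PDF2.5 and PDF1.4 were the calls. GRX480, a glutaredoxin induced by salicylate and 1 of 2 tested salicylate and defence genes, read 6.10 and 5.80 against 5.00 and 5.02, a difference of -0.94 ± 0.20 (limma adjusted p = 0.0273). ChiC, a chitinase, was called at -0.88, and THI2.2, a thionin, at -0.66, both named after their values were seen. The groups did not overlap for any of these 4 genes. The calls of GRX480 (0.054 to 0.14), ChiC (0.0959 to 0.115) and THI2.2 (0.0743 to 0.146) were lost without each array, and that of PDF1.4 on dropping either wild-type array (0.152 and 0.114) and on dropping OsTOP6A3 replicate 1 (0.196). On the deposited scale none of the 4 was called (0.0777 to 0.376).

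Jacalin-type lectins moved in both directions. JAL33 read 10.03 and 9.86 in wild type and 11.67 and 11.48 in the OsTOP6A3 seedlings, a rise of 3.09-fold that held without each array (limma adjusted p = 0.00128). JAL34 was called at 0.66 and JAL22 at -0.66, and both were lost without each array (limma adjusted p = 0.108 to 0.167 and 0.0725 to 0.151), JAL22 also on the deposited scale (0.511). The family includes relatives of the proteins that bind myrosinase, the enzyme that splits glucosinolates.

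Further genes outside the lists were named for having a symbol and a call, again after their values were seen. QQS, an orphan gene known for its effect on starch content, read 4.41 and 4.07 in wild type, at the floor, and 6.13 and 6.01 in the OsTOP6A3 seedlings. Its difference of 1.83 ± 0.16 became 3.96 with a pseudocount of 1 and 0.79 with 64, so its size is not fixed by these data. LUL1, a RING-type ubiquitin ligase, rose 2.96-fold from 5.50 and 5.80 to 7.15 and 7.28 (limma adjusted p = 0.00144). AAH, which breaks down allantoate in purine catabolism, fell 2.22-fold, from 9.30 and 9.39 to 8.12 and 8.28 (limma adjusted p = 0.00543). Calls of these 3 genes held without each array.

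MED31, a subunit of the Mediator complex that links transcription factors to RNA polymerase II, fell from 7.92 and 7.68 to 6.84 and 6.83. Fes1C, a nucleotide exchange factor of HSP70 chaperones, fell from 8.47 and 8.59 to 7.47 and 7.56. Differences were -0.97 ± 0.13 and -1.01 ± 0.12, with limma's adjusted p of 0.00477 and 0.00288. Both calls held without each array and were lost on the deposited scale (0.147 and 0.133).

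Called genes were spread evenly over the nuclear chromosomes. Shares called were 10.0%, 10.2%, 10.0%, 10.1% and 9.16% of the tested genes of chromosomes 1 to 5. Next to a called gene, however, the neighbouring tested gene was called in 13.9% of cases, beside 9.44% next to an uncalled gene, over 9216 adjacent pairs. In 126 pairs both genes were called, and 82 of these went in the same direction, 59 higher and 23 lower. Among all called genes 548 were higher and 374 lower, so part of these counts follows from that mix alone. Neighbours can be tandem copies, and near-identical copies can share hybridisation signal.

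Runs of at least 3 called neighbours among the tested genes numbered 16, none longer than 4 genes, and 6 of them went in 1 direction. Untested loci can lie between such neighbours. On chromosome 5, AT5G26260 read 7.17 and 6.49 in wild type and 9.95 and 9.31 in the OsTOP6A3 seedlings, a rise of 6.97-fold (limma adjusted p = 0.00141). Its neighbour AT5G26270 rose 4.51-fold, from 5.75 and 5.38 to 7.73 and 7.75 (limma adjusted p = 0.00028). The next gene, AT5G26280, was called at 1.01 ± 0.21 and lost its call without each array (limma adjusted p = 0.0837 to 0.125).

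On chromosome 4 the genes AT4G15660, AT4G15680, AT4G15690 and AT4G15700 were all called higher, by 1.38, 0.91, 0.93 and 1.85. The outer genes of the run kept their calls without each array. AT4G15700 read 7.08 and 6.95 in wild type and 8.80 and 8.93 in the OsTOP6A3 seedlings. Calls of the inner genes were lost on dropping wild-type replicate 1 (limma adjusted p = 0.0632 for AT4G15680 and 0.0855 for AT4G15690) and on dropping OsTOP6A3 replicate 2 (0.0882 and 0.073). The former was also lost on dropping wild-type replicate 2 (0.0657) and the latter on dropping OsTOP6A3 replicate 1 (0.0751).

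Elsewhere neighbours parted. On chromosome 2, AT2G43535 rose from 6.28 and 6.06 to 9.97 and 9.53 and AT2G43530 from 6.85 and 6.39 to 8.61 and 8.53, whereas AT2G43550 fell by 1.17 on the log2 scale, with no overlap between the groups. Limma's adjusted p was 9.85e-05, 0.000628 and 0.00261, and these calls held without each array. AT2G43540, between them, was called 2.15-fold higher and lost its call on dropping OsTOP6A3 replicate 1 (0.0551) and replicate 2 (0.0573). Of the remaining runs in 1 direction, AT5G05350, AT5G05420 and AT5G05430 on chromosome 5 were the one that fell, by 0.72, 0.80 and 1.06 on the log2 scale. The last of these was lost on dropping OsTOP6A3 replicate 1 (0.0563), and the others without each array (0.0585 to 0.179).

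**Figure D5:**
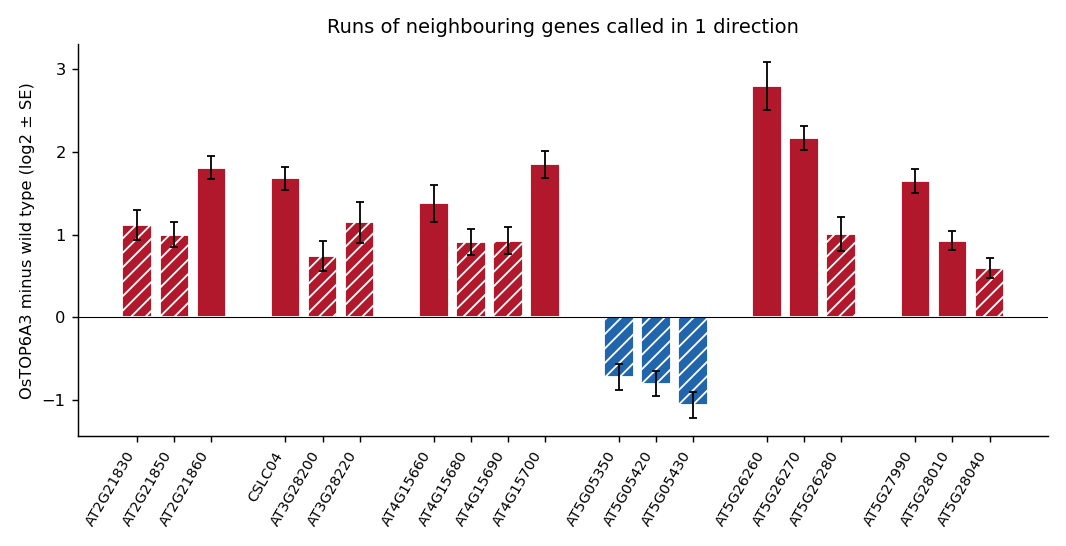
Difference between OsTOP6A3 overexpressors and wild type (log2, bars with standard errors from limma, n = 2 arrays per group) for the genes of the 6 runs of at least 3 called neighbours that went in 1 direction, with a gap between runs. Hatched bars lost their call without at least 1 array. In 5 runs all genes rose, up to 2.80 for AT5G26260, and in 1 run they fell.

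Of 88 tested loci annotated as pseudogenes 12 were called higher and 6 lower, and 7 of the 18 were called without each array. A locus near the floor in wild type can pass the filter on mean level through the overexpressor arrays alone, so these counts are not set against those of other genes. AT1G20390 read 4.78 and 4.76 in wild type and 7.67 and 8.05 in the OsTOP6A3 seedlings (limma adjusted p = 8.06e-05). AT4G08110 read 4.14 and 4.28 against 6.34 and 6.39 (0.000203), and AT3G15310 4.92 and 4.66 against 6.89 and 6.73 (0.000765). These loci lay near the floor in wild type and clear of it in both OsTOP6A3 arrays. AT4G16870 rose from a higher level, from 5.49 and 5.51 to 6.89 and 6.90 (limma adjusted p = 0.000569). A locus so annotated can share sequence with other loci, so the source of its signal cannot be told apart. This grouping was made after the values had been seen.

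Between the overexpressors no probe set was called by limma, and 1235 had an unadjusted p under 0.05. Because both comparisons share the wild-type arrays, their values are given side by side. UGT74B1 stood at 9.18 and 8.64 in the OsTOP6B seedlings beside 9.07 and 9.08, SKU5 at 10.67 and 10.69 beside 10.66 and 10.57, and EXPA8 at 5.54 and 6.20 beside 5.45 and 5.71. Arrays of the overexpressors overlapped or lay close together for these genes, on the side away from wild type. Over 226 called genes, named by the rule or added after their values were seen, the difference between the overexpressors ran from -1.06 to 0.60. The median half-width of its 95% interval was 0.36. EXPA7, at 1.23 with OsTOP6A3 and 1.73 with OsTOP6B, differed by -0.50 ± 0.16, and DI21, at 1.95 and 2.57, by -0.62 ± 0.21. With an adjusted p of 0.675 from limma in both cases, these differences did not pass.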

How the data were processed

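RNA of seedlings was measured on 6 one-colour arrays, 2 in each of 3 groups named by the labels. The authors deposited linear intensities, 1 for each probe set of an array. How they summarised probes, and whether they scaled arrays, is stated in none of the sources used here. All 6 columns of intensities were used, and the number without a sample was 0. Medians of the intensities were 69.7 and 71.7 in wild type and 95.2 and 90.7 in the OsTOP6A3 seedlings. Of 22810 probe sets 64 controls were left out, 16 was added, and log2 values were quantile normalized, since quartiles differed by up to 0.54 against a limit of 0.1. Probe sets at or above the 25th percentile of the mean over 6 arrays were tested, which left out 5687. limma 3.58.1 in R 4.3.3 fitted a mean per group to all 6 arrays (3 residual and 4.61 prior degrees of freedom), with two-sided tests and Benjamini-Hochberg adjustment. The number of arrays limits the precision. The fit was tested on simulated data.

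A gene took its probe set of highest mean. Names came from the platform annotation, updated through RefSeq, and neighbours from the order of the tested genes by start position on each chromosome. Lists were matched by symbol, and 36 false matches were removed by name. The members and lists were chosen with earlier results of these data known. The naming rule took, per list, up to 3 called genes of largest difference and up to 2 uncalled genes of smallest p, the 3 largest rises and falls per class, and tested topoisomerases. Genes with a symbol, families by symbol stem, runs and pseudogenes were added after the values were seen. Same-numbered samples did not deviate together (r of -0.05 to 0.0155), so no block was used. Promoter motifs were not analysed here.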

Additional observations from a re-analysis of the deposited data

How the results depend on the processing

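Of the 226 called genes, named by the rule or added after their values were seen, none changed direction under any of the 13 alternatives. The calls of 150 of them held on the deposited scale, 216 with median scaling, 159 with a pseudocount of 1, 214 with 64, 143 without a filter, 218 in a fit of the 4 arrays and 214 with an intensity trend. Without 1 array, 103 to 122 held.

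The 1652 calls (941 higher, 711 lower) became 1100 with a pseudocount of 1 (423 lower) and 1002 without a filter (374 lower). A pseudocount of 64 gave 1069 lower, and the deposited scale 1809 higher and 156 lower. Without 1 array at a time there were 560 to 870 calls, 370 to 598 higher and 190 to 272 lower. The 58 calls among list members became 35 without a filter and 24 to 36 without 1 array. Calls in the classes from lowest to highest were 435, 461, 398 and 358. With a pseudocount of 1 the upper 3 classes held 302, 259 and 210, with 64 the upper 2 held 628 and 730, and with an intensity trend 600 and 735. Without a filter the lowest class held 84. Without 1 array the classes held 189 to 252, 143 to 238, 129 to 201 and 99 to 179. Fewer samples enter the last of these fits, and a test without a filter adjusts over 22746 probe sets. For the other settings the cause was not tested.

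With the replicate number as a block, 1452 probe sets and 60 list members were called, and 24 of the named calls were lost. The samples share only a number, since deviations of same-numbered arrays correlated at 0.00206 for the OsTOP6A3 and wild-type groups, so this fit is given here alone. The shares of promoters that hold a motif were not run. Signal near the floor of 4 limits the folds of the 225 tested probe sets with both wild-type arrays under a level of 5.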
